A study of Mus musculus with 6 samples.

Results

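The Notch genes described here are 3 receptors (Notch1, Notch2, Notch3), 3 ligands (Jag1, Jag2, Dll1), the nuclear mediator Rbpj and 3 target genes of the HES/HEY class (Hes1, Hey1, Hey2). They were taken from the deposited gene table by gene symbol, and all 10 of them were among the 16880 genes listed. RNA-seq was done on 6 libraries of mouse cells, 3 treated with IL-1β at 10 ng/mL and 3 treated with the same dose of IL-1β plus NP-G2-044 at 10 μM, for 24 h by the study's methods. IL-1β is an inflammatory cytokine of the joint, and NP-G2-044 blocks FSCN1, a protein that bundles actin filaments. Both groups carried IL-1β, and the untreated DMSO culture of the methods was not analysed here, so each value compares cells with and without NP-G2-044 under IL-1β. The cells are ATDC5, a mouse line of the chondrogenic lineage, by the sample labels, whereas the methods describe primary articular chondrocytes of young mice. The titles give the inhibitor as NP-G2-044, but the treatment label of the same samples reads NP-G2-047. The methods state 3 biological replicates per group, but no label says whether the 3 libraries of a group came from separate cultures. The p-values thus measure the spread between these libraries, which may be technical.

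Notch receptors are cell-surface proteins that are cleaved when a Jagged or Delta ligand on a neighbouring cell binds them. The freed intracellular part moves to the nucleus and joins the DNA-binding protein RBPJ, which represses target genes without it and activates them with it. The HES and HEY genes, which encode bHLH repressors, are the classical targets, and in cartilage the pathway is known for its part in chondrocyte maturation and in osteoarthritis.

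The libraries held 16615824 to 17735860 reads each. Fscn1, which encodes the protein that the inhibitor binds, had 616 ± 9.46 TPM (a level scaled for gene length and library size; SD, n = 3) with IL-1β alone and 252 ± 2.47 TPM when NP-G2-044 was added. The groups were far apart across the transcriptome: 80.0% of the 11983 tested genes had an adjusted p below 0.05 by the quasi-likelihood test of edgeR, 40.2% higher and 39.8% lower with NP-G2-044. With a log2 fold change above 1 in size as a further cutoff, 6.48% were higher and 10.1% lower, and in 80.8% the groups did not overlap in CPM, the read count scaled to library size. The cells carried few chondrocyte markers. Of 10 in the list 7 had values, with summed TPM of 16.7 to 17.9 against 13.5 to 14.4 with NP-G2-044. Acan was not analysed here, Matn1 had no read, and Col2a1 stood at 0.217 and 0.04 TPM. Its members differed in direction: Sox9 went from 6.44 to 11.4 TPM and Sox5 from 10.3 to 2.27 TPM. The 6 fibroblast markers summed to 3291 to 3383 TPM and to 1640 to 1699 TPM, with Thy1 at 0, and nearly all of both sums came from Vim and Col1a2, while Pdgfra went from 2.36 to 8.69 TPM. The 5 of 6 macrophage and blood markers with values summed to 23.5 to 24.4 TPM and to 128.5 to 139.9 TPM, nearly all of the latter from Cd68, with Ptprc at 0. The 4 of 6 osteoblast markers with values went from 23.4 to 25.9 TPM to 12.4 to 13.6 TPM, and the 6 of smooth muscle and pericytes from 6.61 to 7.08 TPM to 7.4 to 8.58 TPM, with Des at 0. In the latter list Cspg4 went from 1.77 to 7.45 TPM and Mcam from 4.96 to 0.457 TPM, so the sum does not describe its members. The 4 of 6 endothelial markers with values reached at most 0.55 TPM and the 6 epithelial ones at most 1.35 TPM, with Epcam and Krt14 at 0. The sums of all these lists but the epithelial one did not overlap between the groups. This includes the scarce endothelial markers, at 0.05 to 0.28 TPM and 0.4 to 0.55 TPM with NP-G2-044. The part of these lists in the Notch results was not tested. In bulk RNA, fewer cells of a type and less RNA per cell cannot be told apart.

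Of the 10 Notch genes, 7 passed the filter on low counts and 3 did not (Notch3, Hey1, Hey2). Rbpj and Hes1 were called higher with NP-G2-044 and Notch2 and Jag2 lower, though the call of Hes1 was lost with DESeq2. These 4 of 7 (57.1%) stand against 80.0% of all tested genes, and none of the 7 passed the further cutoff on fold change. The median log2 fold change of the 7 was 0.35, the value of Jag1, and their median size of change 0.71, that of Dll1. Over all tested genes these were 0.00 and 0.39. Neither Jag1 nor Dll1 was called, and apart from Notch2 and Rbpj none of the 7 had more than 44 reads in a library. The part of counting error in these medians was not tested. In 4 of the 7 (Notch2, Jag2, Rbpj, Dll1) the groups did not overlap, beside 80.8% of all tested genes. Dll1 passed the filter only through the libraries with NP-G2-044, where it was higher, so its lack of overlap and its higher level were built in. The median size of 0.71 is the value of Dll1, so setting it against 0.39 does not show that the 7 moved more than other genes.

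**Figure D1:**
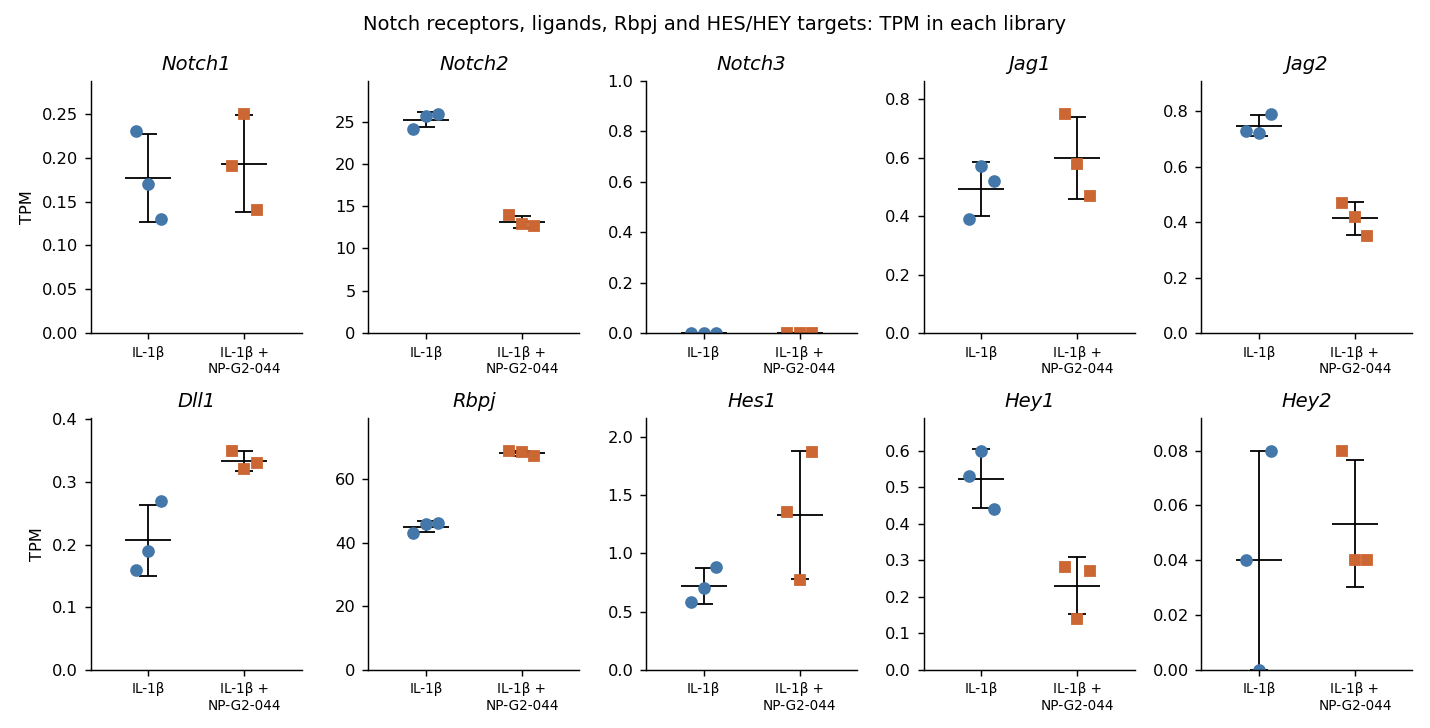
TPM of each of the 10 Notch genes (y axis, a separate scale per gene, each starting at 0) in the 3 libraries with IL-1β (circles) and the 3 with IL-1β plus NP-G2-044 (squares). The long bar is the mean and the error bar the SD; Notch2 lies between 24.17 and 25.91 TPM against 12.65 to 13.99 TPM, Rbpj between 43.04 and 46.2 TPM against 67.17 to 68.72 TPM, and Notch3 is at 0 throughout.

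Notch2 was nearly the whole of the receptor RNA, and it fell. Notch2 (Entrez 18129, GRCm38 chr3:98013538-98150367) is the receptor mutated in Hajdu-Cheney syndrome, a disorder of bone loss. It had 2656, 2735 and 2825 reads with IL-1β and 1608, 1518 and 1490 reads with NP-G2-044 added. In TPM these were 24.17, 25.65 and 25.91 against 13.99, 12.91 and 12.65, or 25.2 ± 0.939 and 13.2 ± 0.711 (mean ± SD, n = 3). Every library with the inhibitor lay below every library without it. The log2 fold change was −0.90 ± 0.0353 (SE; 95% interval −0.97 to −0.83; edgeR adjusted p = 1.93e-29), a level 1.87-fold lower. A change of at least this size in either direction was seen in 2291 tested genes (19.1%). In the annotation, 541 of its exonic bases are shared with Gm42820 on the same strand, and reads there could belong to either gene.

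Notch1 and Notch3 added little to the receptor RNA. Notch1 (Entrez 18128, chr2:26457902-26503822), the best studied receptor of the family, had 23, 16 and 13 reads with IL-1β and 20, 26 and 15 with NP-G2-044, or 0.177 ± 0.0503 and 0.193 ± 0.0551 TPM. The groups overlapped, and the log2 fold change was 0.16 ± 0.282 (95% interval −0.41 to 0.72; edgeR adjusted p = 0.612). Its sign depended on single libraries: it was −0.019 without replicate 3 of the IL-1β group and −0.052 without replicate 2 of the NP-G2-044 group. Exons of 0610009E02Rik and Gm13568 overlap it on the opposite strand, and the use of strand in the counting is not stated. Notch3 (Entrez 18131, chr17:32120820-32166896), a receptor of vascular smooth muscle, had 0 reads in all 6 libraries. A count of 0 allows up to 0.0597 CPM over the 3 libraries with IL-1β and 0.0567 over the 3 with NP-G2-044, counting error only.

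The fourth mammalian receptor, Notch4, was scarce too. It had 25, 16 and 29 reads with IL-1β and 14, 16 and 8 with NP-G2-044, or 0.347 ± 0.0971 and 0.177 ± 0.0586 TPM. It fell, with a log2 fold change of −0.95 ± 0.295 (edgeR adjusted p = 0.00331). Summed over the 4 receptors, the level was 25.8 ± 0.887 TPM with IL-1β and 13.6 ± 0.755 TPM with NP-G2-044. Notch2 made up 98.0 ± 0.43% of that sum and then 97.3 ± 0.787% (exact permutation test, two-sided, p = 0.3, adjusted p = 0.36 over the 6 shares compared). The share of Notch1 was 0.691 ± 0.221% and 1.43 ± 0.402%, with no overlap (exact permutation p = 0.1, adjusted 0.15). With 3 libraries against 3 this test cannot give a p below 0.1. Notch1 itself overlapped between the groups, at 0.177 and 0.193 TPM, while the sum fell, so the higher share does not show a rise of Notch1. The share of Notch4 was 1.35 ± 0.374% and 1.30 ± 0.404% (exact permutation p = 0.8, adjusted 0.8).

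The 3 ligands stood at well under 1 TPM each, and their shares of the ligand sum did not overlap between the groups, whereas the sum itself did. Jag2 (Entrez 16450, chr12:112907803-112929812) encodes a Jagged ligand that activates Notch receptors on the adjoining cell. It had 32, 31 and 34 reads with IL-1β and 21, 21 and 16 with NP-G2-044. In TPM it was 0.747 ± 0.0379 and 0.413 ± 0.0603. All 3 libraries with the inhibitor lay below all 3 without it, and Jag2 fell 1.75-fold (log2 fold change −0.81 ± 0.234, 95% interval −1.28 to −0.34, edgeR adjusted p = 0.00159). Changes as large were found in 22.5% of tested genes.

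Jag1 (Entrez 16449, chr2:137081451-137116520), the ligand mutated in Alagille syndrome, had 22, 31 and 29 reads with IL-1β and 44, 35 and 31 with NP-G2-044. Its level was 0.493 ± 0.0929 and 0.6 ± 0.141 TPM, and the groups overlapped. The log2 fold change was 0.35 ± 0.215 (95% interval −0.08 to 0.78, edgeR adjusted p = 0.13), so neither a change of that size nor the lack of one can be read from these libraries. Dll1 (Entrez 13388, chr17:15367354-15376932), a Delta-type ligand, had 6, 7 and 9 reads with IL-1β and 13, 12 and 13 with NP-G2-044. Its TPM were 0.207 ± 0.0569 and 0.333 ± 0.0153, with no overlap, which the filter had built in. The log2 fold change of 0.71 ± 0.37 had a 95% interval of −0.04 to 1.45 and missed the threshold (edgeR adjusted p = 0.0754). The pooled reads gave a ratio of 1.64 (exact 95% interval 0.946 to 2.91, counting error only). Exons of A930024N18Rik on the opposite strand cover 867 bases of Dll1.

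The summed level of the 3 ligands was 1.45 ± 0.153 TPM with IL-1β and 1.35 ± 0.211 TPM with NP-G2-044 (exact permutation p = 0.6). Within that sum, the share of Jag2 was 48.6% to 57.0% with IL-1β and 29.9% to 31.8% with NP-G2-044. By TPM, Jag2 thus led in every library with IL-1β, and Jag1 led in every library with NP-G2-044. By reads the lead with IL-1β was less clear, since both genes had 31 reads in replicate 2. The mean read shares of Jag2 and Jag1 were 48.5% and 40.6% with IL-1β and 28.2% and 53.2% with NP-G2-044. In TPM, the mean share of Jag1 was 34.0 ± 4.12% and 44.2 ± 3.46%, and that of Dll1 was 14.1 ± 2.56% and 25.1 ± 3.28%. For each of the 3 ligands the shares of the groups did not overlap, and the exact permutation p was the smallest possible, 0.1 (adjusted 0.15). The shares are parts of the same sum, so these are not 3 separate results. As genes, Jag1 and Dll1 were not called, and only Jag2 was. The other Delta ligands had almost no reads: Dll3 had 2 with IL-1β and 1 with NP-G2-044, and Dll4 had 2 and 4.

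**Figure D2:**
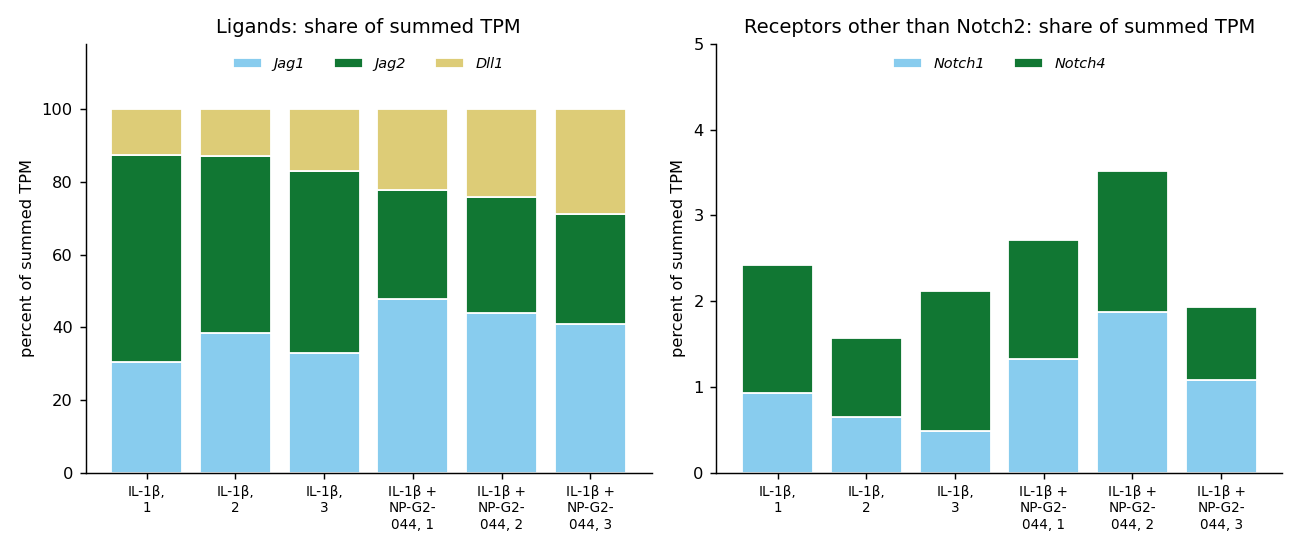
Stacked bars for each of the 6 libraries, numbered by replicate within a group, in percent of summed TPM: at the left Jag1, Jag2 and Dll1 as shares of the 3 ligands, at the right Notch1 and Notch4 as shares of the 4 receptors, with Notch2 making up the rest and the axis ending at 5%. Jag2 takes 48.6% to 57.0% of the ligand sum with IL-1β alone and 29.9% to 31.8% after addition of NP-G2-044.

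Rbpj had the highest TPM of the 10 Notch genes in both groups, and it rose while Notch2 fell. Rbpj (Entrez 19664, chr5:53555779-53657445) encodes the DNA-binding factor through which all Notch receptors act. It had 2416, 2497 and 2514 reads with IL-1β and 3986, 4137 and 4059 with NP-G2-044. The TPM were 43.04, 45.8 and 46.2 against 68.72, 68.42 and 67.17, or 45.0 ± 1.72 and 68.1 ± 0.822. Every library with the inhibitor was above every library without it, and the spread within a group was small beside the gap. The log2 fold change was 0.64 ± 0.0304 (95% interval 0.58 to 0.70, edgeR adjusted p = 9.89e-26), a 1.56-fold higher level. Changes of this size or more were seen in 30.9% of tested genes. RefSeq also annotates Rbpj pseudogenes, which were not analysed here, and reads from such copies could have been counted as Rbpj or lost.

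The ratio of Rbpj to Notch2 TPM, a measure chosen after the values were seen, was 1.78, 1.79 and 1.78 with IL-1β and 4.91, 5.30 and 5.31 with NP-G2-044. The mean ratios were 1.78 ± 0.00243 and 5.17 ± 0.227. No test is given, since both genes were already seen to be without overlap, in opposite directions.

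Promoter windows from RefSeq (GRCm38.p6), running from 250 bases before a transcript's start to 50 bases after it, were found for 8 of the 10 Notch genes, with 10 windows in all. Hes1 and Hey1 had no window, so their promoters were not searched. They were searched on both strands for TGGGAA, the core of the known RBPJ binding motif, and for the longer form GTGGGAA, which contains it. Of 32851 windows of all genes, 25.6% hold TGGGAA and 3.79% hold it at least 2 times, while 6.38% hold GTGGGAA and 0.256% hold it at least 2 times. Among the Notch genes, TGGGAA was found in the window of Hey2 and in both windows of Rbpj, which overlap and share a match, and the first of these is shown. Windows of Notch2 and Rbpj are shown because these genes had the most reads of the 10 and the smallest adjusted p-values, and that of Hey2 because it holds the longer form 2 times. Capitals mark TGGGAA, or its reverse complement where the match is on the opposite strand. The Notch2 window is chr3:98013288-98013587 on the plus strand, the Rbpj window chr5:53590096-53590395 on the plus strand and the Hey2 window chr10:30842734-30843033 on the minus strand.
Notch2: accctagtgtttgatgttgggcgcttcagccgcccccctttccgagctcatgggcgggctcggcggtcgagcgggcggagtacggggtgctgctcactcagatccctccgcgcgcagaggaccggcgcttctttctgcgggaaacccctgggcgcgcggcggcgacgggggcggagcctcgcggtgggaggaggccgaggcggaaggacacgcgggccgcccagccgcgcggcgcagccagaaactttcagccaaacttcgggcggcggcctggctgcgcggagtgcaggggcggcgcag
Rbpj: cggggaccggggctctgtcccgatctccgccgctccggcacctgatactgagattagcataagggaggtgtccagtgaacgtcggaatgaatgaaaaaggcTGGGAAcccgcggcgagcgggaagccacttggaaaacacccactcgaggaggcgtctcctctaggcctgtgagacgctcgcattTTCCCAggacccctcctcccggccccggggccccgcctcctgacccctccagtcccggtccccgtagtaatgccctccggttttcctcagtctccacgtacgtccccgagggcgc
Hey2: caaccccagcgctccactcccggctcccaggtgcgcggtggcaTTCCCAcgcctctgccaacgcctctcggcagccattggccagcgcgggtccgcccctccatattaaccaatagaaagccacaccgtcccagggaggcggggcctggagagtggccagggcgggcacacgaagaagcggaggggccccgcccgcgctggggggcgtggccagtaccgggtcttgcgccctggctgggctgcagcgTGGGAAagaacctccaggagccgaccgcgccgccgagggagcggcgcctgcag
The Notch2 window holds no match. In this Rbpj window the match on the gene's own strand runs from 149 to 144 bases before the start, and that on the opposite strand from 65 to 60 bases before it. In the Hey2 window the match on the gene's strand begins 3 bases before the start, and that on the opposite strand lies 207 to 202 bases before it. Each match is a run of letters and not a measured binding site.

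The HES/HEY target genes had low levels, and of the 3 only Hes1 passed the filter. Hes1 (Entrez 15205, chr16:30065357-30067796), the bHLH repressor most widely used as a readout of Notch activity, had 7, 8 and 11 reads with IL-1β and 18, 9 and 25 with NP-G2-044. Its TPM were 0.58, 0.7 and 0.88 against 1.36, 0.77 and 1.87, or 0.72 ± 0.151 and 1.33 ± 0.55. The groups overlapped, since replicate 2 with the inhibitor lay below the highest library without it. Hes1 reached the count cutoff of the filter in 1 library with IL-1β and in 2 with NP-G2-044. Hes1 rose by the edgeR test, with a log2 fold change of 0.92 ± 0.356 (95% interval 0.20 to 1.63, adjusted p = 0.017). The call rests on few reads: with DESeq2 the adjusted p was 0.0886 at a log2 fold change of 0.92. It was also lost on leaving out replicate 1 with IL-1β (0.79, edgeR adjusted p = 0.0617), replicate 2 with IL-1β (0.87, adjusted p = 0.0504) or replicate 3 with NP-G2-044 (0.56, adjusted p = 0.213). The pooled reads, 26 and 52, gave a ratio of 1.90 (exact 95% interval 1.17 to 3.17, counting error only).

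Hey1 (Entrez 15213, chr3:8663359-8667038), a repressor that is also a target of BMP signalling, had 11, 12 and 9 reads with IL-1β and 6, 3 and 6 with NP-G2-044. Its TPM were 0.53, 0.6 and 0.44 against 0.28, 0.14 and 0.27, or 0.523 ± 0.0802 and 0.23 ± 0.0781, with no overlap. It lay under the filter and was not tested. Its pooled reads, 32 and 15, gave a level 2.25-fold higher with IL-1β (exact 95% interval 1.18 to 4.46, counting error only). When all genes were fitted unfiltered, it had a log2 fold change of −1.14 ± 0.476 (edgeR adjusted p = 0.0275). Hey1 passed the filter in 4 of the 6 fits with a library left out, through the IL-1β libraries, where it was higher. A lower level with NP-G2-044 was thus built into these fits, and their p-values add nothing to it. There it was −1.26 without IL-1β replicate 3, −1.30 without NP-G2-044 replicate 1 and −1.29 without NP-G2-044 replicate 3 (edgeR adjusted p = 0.0152, 0.02 and 0.0209), and −0.88 without NP-G2-044 replicate 2 (adjusted p = 0.0781). In that unfiltered fit Hes1 was at 0.92 (edgeR adjusted p = 0.0158), so these 2 targets had opposite signs.

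Hey2 (Entrez 15214, chr10:30832359-30842783), best known from heart and vessel development, had 1, 0 and 2 reads with IL-1β and 2, 1 and 1 with NP-G2-044. The ratio of pooled reads was 1.27 with an exact 95% interval of 0.214 to 8.65, so a difference was not detectable at this depth. Of the relatives of these targets, Hes6 was at 22.3 ± 0.351 and 20.6 ± 0.58 TPM (log2 fold change −0.09, edgeR adjusted p = 0.3). Hes5 had 0 reads with IL-1β and 1 with NP-G2-044, and Nrarp, a target that feeds back on the receptor, had 4 and 1. Heyl was not analysed here.

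**Figure D3:**
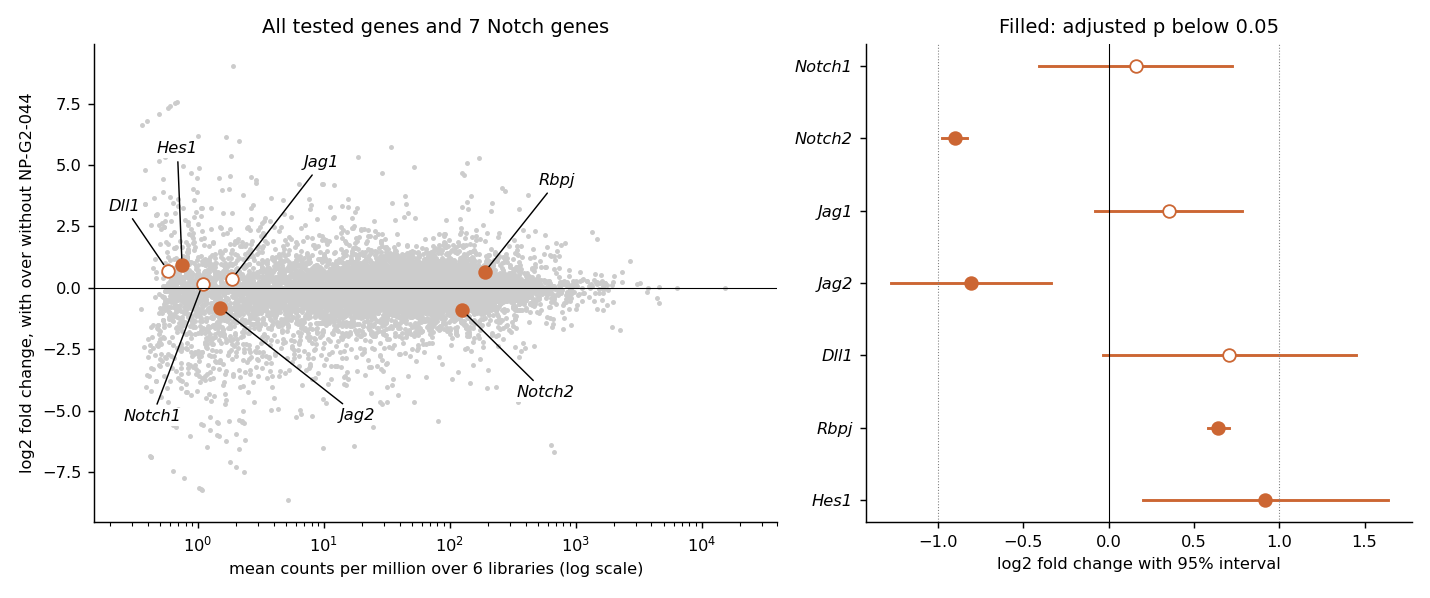
At the left, log2 fold change (NP-G2-044 added over IL-1β alone) against mean CPM on a log axis for the 11983 tested genes (grey) and the 7 tested Notch genes. At the right, the log2 fold change of the 7 with its 95% interval, with dotted lines at −1 and 1; filled points have an adjusted p below 0.05, and the intervals of Notch2 (−0.97 to −0.83) and Rbpj (0.58 to 0.70) are the narrowest of the 7.

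Ordered by mean TPM, Rbpj and then Notch2 led in both groups, and no library of either gene overlapped with the next in the order. With IL-1β the order went on with Jag2 (0.747), Hes1 (0.72), Hey1 (0.523) and Jag1 (0.493), of which each overlapped with the next. Dll1 (0.207) and Notch1 (0.177) came after them and overlapped with each other, and then Hey2 (0.04) and Notch3 (0). With IL-1β plus NP-G2-044 Hes1 (1.33) came next after Notch2, with no overlap with Jag1 (0.6). Jag1, Jag2 (0.413) and Dll1 (0.333) each overlapped with the next of them, and Hey1 (0.23) and Notch1 (0.193) overlapped with each other. Hey2 (0.0533) and Notch3 (0) were again last. Ranked by mean TPM among all genes listed, Rbpj held place 2941 and Notch2 place 6579, and the next of the 10, Hes1, place 11084.

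The wider pathway was read from a list of 66 other Notch genes, of which 63 had values and 54 were tested. With NP-G2-044, 14 rose, 27 fell and 13 did not pass the test. The 41 called (75.9%) stand against 80.0% of all tested genes, the 14 that rose (25.9%) against 40.2%, and the 27 that fell (50.0%) against 39.8%. The median log2 fold change was −0.13, against 0.00 over all tested genes, and its median size 0.34 against 0.39. With the further cutoff on fold change, 5 were higher (9.26%, against 6.48% of all tested genes) and 7 lower (12.96%, against 10.1%). The 27 and the 7 include Aph1c, which passed the filter only through the libraries with IL-1β alone, where it was higher.

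Among the 6 other receptors and ligands only 2 were tested, Notch4 and Dlk2. Both fell, beside 39.8% of all tested genes, and 2 genes do not describe the class. Dlk2, a Delta-like protein that lacks the receptor-binding DSL domain, went from 51.7 ± 3.34 to 16.2 ± 1.88 TPM (log2 fold change −1.62 ± 0.0684, edgeR adjusted p = 6.4e-28). Dner, a neural Notch ligand under the filter, had 1 read with IL-1β and 18 with NP-G2-044. Of the 5 tested enzymes that put sugars on the receptor, 3 fell and 1 rose, the same 80.0% called as over all tested genes. Lfng, the fringe enzyme that sets which ligands a receptor answers, fell from 9.66 ± 0.646 to 2.99 ± 0.41 TPM (log2 fold change −1.66 ± 0.113, edgeR adjusted p = 4.12e-19). Its relative Mfng had no read. Eogt, which adds an N-acetylglucosamine, rose from 20.3 to 22.5 TPM (0.16, edgeR adjusted p = 0.00158).

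Of the 4 ubiquitin ligases that prime ligands for endocytosis, 2 fell (50.0%, against 39.8% of all tested genes) and 1 rose (25.0%, against 40.2%). In all 75.0% were called, against 80.0%. Neurl1a fell from 3.09 to 0.643 TPM (log2 fold change −2.16, edgeR adjusted p = 1.06e-17), with 690 exonic bases shared with AC132288.2 on its strand. Mib2 rose from 7.15 to 15.2 TPM (1.07, edgeR adjusted p = 8.3e-21), and the related Mib1 was at 15.7 and 14.5 TPM (edgeR adjusted p = 0.177). The proteases and γ-secretase parts that cleave the receptor were all tested: 6 of 10 fell, against 39.8% of all tested genes, and 3 rose, against 40.2%. The sheddases Adam10 and Adam17 were among those that fell, with log2 fold changes of −0.84 and −0.59. Psen2, a catalytic subunit of γ-secretase, rose from 2.33 to 4.89 TPM (1.10, edgeR adjusted p = 9.74e-09). Aph1c, among the 6 that fell, gave the lowest value of the class, −2.47 (edgeR adjusted p = 3.18e-08). It passed the filter only through the libraries with IL-1β alone, where it was higher, so it had to differ and adds nothing to that count. Its counts were also not whole and its reads are shared with Aph1b, so this value is uncertain. Aph1b, which was also among the 6 (−0.20, edgeR adjusted p = 0.044), has the same limit of shared reads.

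Of 9 tested genes for turnover and inhibition of the receptor, 3 rose (33.3%, against 40.2% of all tested genes) and 1 fell (11.1%, against 39.8%). The other 5 did not pass the test, so 44.4% were called, against 80.0%. Dtx4, an E3 ligase of the Deltex family, rose from 9.63 to 22.6 TPM (1.25, edgeR adjusted p = 1.11e-19), as did Dtx2 (0.98) and Dtx3 (0.45). Nedd4, a ubiquitin ligase with many substrates, fell from 503 to 341 TPM (−0.53, edgeR adjusted p = 3.13e-25). Numb, the Notch inhibitor that is shared unequally at cell division, was at 16.3 and 16.9 TPM (0.07, edgeR adjusted p = 0.223).

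In the nucleus, 5 of 8 coactivators fell (62.5%, against 39.8% of all tested genes) and 2 rose (25.0%, against 40.2%). In all 87.5% were called, against 80.0%. Maml3, of the Mastermind family that bridges RBPJ and the receptor fragment, fell from 6.08 ± 0.52 to 1.59 ± 0.0351 TPM (−1.92 ± 0.0865, edgeR adjusted p = 1.22e-26). Its relative Maml1 rose by 0.13 on the log2 scale and Maml2 fell by 0.23. Kat2a, a histone acetyltransferase, rose from 131 to 139.8 TPM (0.13, edgeR adjusted p = 6.86e-05). Of the 13 corepressors, 8 fell (61.5%, against 39.8%) and 2 rose (15.4%, against 40.2%), with 76.9% called, against 80.0%. Tle2, a Groucho-type corepressor recruited by HES proteins, fell from 5.85 to 1.23 TPM (−2.17, edgeR adjusted p = 2.95e-20), whereas its relative Tle1 rose from 8.3 to 12.3 TPM (0.45, edgeR adjusted p = 6.62e-08). Hdac1 fell by 0.91 and Spen, which binds RBPJ directly, by 0.46 on the log2 scale.

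Of the 9 other HES/HEY family genes and Nrarp, 3 were tested and 2 rose (66.7%, against 40.2% of all tested genes), both of the Bhlhe pair, which is known for its part in the circadian clock. Bhlhe41 rose from 2.15 ± 0.296 to 7.49 ± 0.451 TPM (1.84 ± 0.0848, edgeR adjusted p = 3.07e-26), though 1280 of its exonic bases overlap Gm43909 on the opposite strand. Bhlhe40 rose from 21.7 to 59.96 TPM (1.50, edgeR adjusted p = 3.25e-35).

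**Figure D4:**
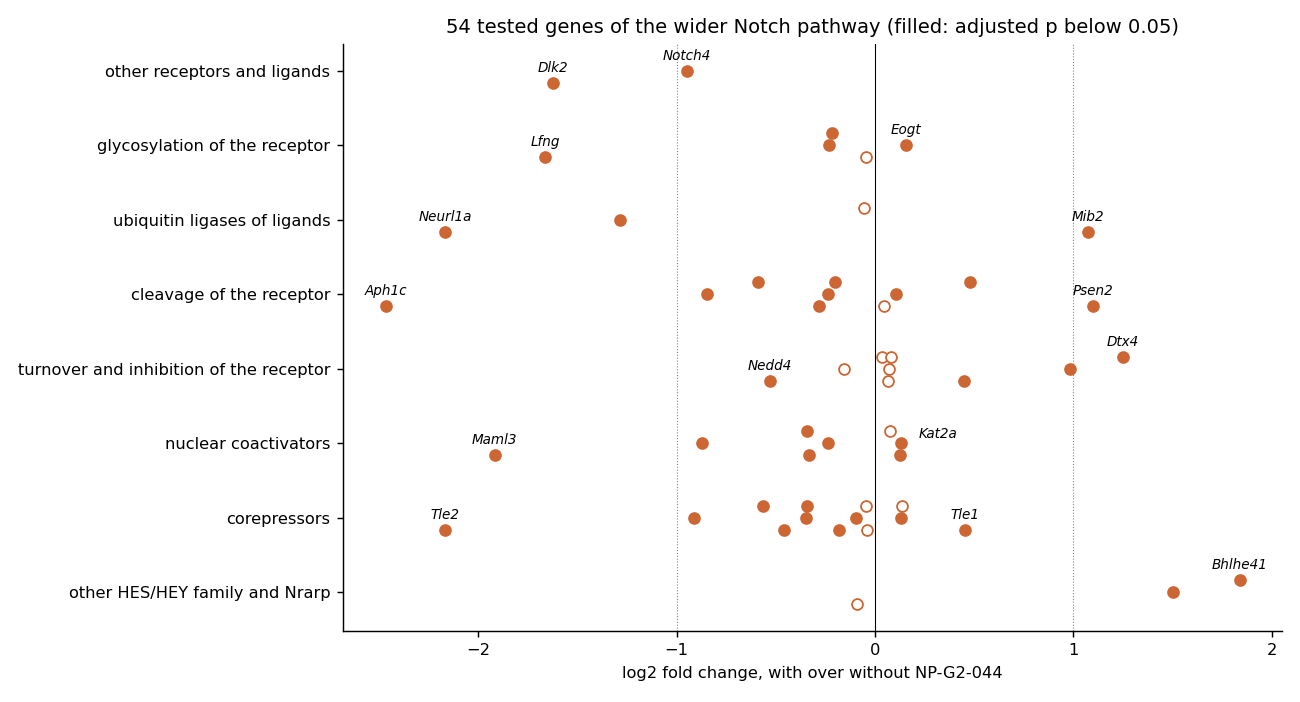
Log2 fold change (x axis, NP-G2-044 added over IL-1β alone) of the 54 tested genes of the wider Notch pathway, 1 point per gene, in rows by role; small vertical offsets only separate points, dotted lines mark −1 and 1, and filled points have an adjusted p below 0.05. The named points are Notch4 and, in each role, the called genes without overlap that have the highest and the lowest value, from Aph1c at −2.47 to Bhlhe41 at 1.84. Aph1c passed the filter only through the libraries with IL-1β alone.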

How the data were processed

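RNA of 6 libraries was sequenced and quantified by BGI, according to the study's methods, after an Illumina TruSeq library preparation. The submitters' processing notes name cutadapt, HISAT2 2.0, StringTie and the mm10 build, with no role given. The authors deposited expected counts, estimated per gene and not normalized, with TPM and FPKM made per library. Of the counts, 10.2% to 11.1% per library were not whole. The deposited FPKM and group means were not used.

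Expected counts were rounded, filtered with filterByExpr (minimum count 10), scaled by TMM and compared with the edgeR 4.0.16 quasi-likelihood test (robust; R 4.3.3), 3 libraries against 3, with Benjamini-Hochberg adjustment over 11983 genes. The SE is the log2 fold change over the square root of F. Genes were called at an adjusted p below 0.05, alone or with a log2 fold change above 1 in size. Shares of summed TPM were compared by two-sided exact permutation tests. Genes with few reads have an exact (Clopper-Pearson) 95% interval for the ratio of pooled reads, scaled by library totals, and a count of 0 allows up to 3 counts. Coordinates and promoter windows are from RefSeq on GRCm38.p6, and exon overlaps from GENCODE on GRCm38.

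Named were all 10 Notch genes, their paralogs, Nrarp, Fscn1, defining markers, and in each role of the wider list the called genes without overlap that had the highest and the lowest log2 fold change. Other pathway genes were named after their values were seen. The members and lists were chosen with earlier results of these data known.

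Squared differences between replicates of a group were on average 1.54 to 2.39 times those expected from sampling alone. Between libraries of different groups they were 133 to 136 times as large. Genes with at least 60 reads over the 6 libraries were used. Alternatives were DESeq2 1.42.0 and its size factors, library size alone, limma 3.58.1 on log2(TPM + 1) or log2(TPM + 0.1), no filter, at least 10 CPM in 3 libraries, the replicate number as a block, and each library left out.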

Additional observations from a re-analysis of the deposited data

How the results depend on the processing

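Of 295 alternative values for 25 results, 266 kept their direction and side of the threshold or their size. Past both cutoffs, all genes numbered 503 higher and 782 lower with limma on log2(TPM + 1), and 484 and 680 with at least 10 CPM in 3 libraries. Of the Notch genes, 1 was called higher with DESeq2 and 1 with the 10 CPM filter, and 1 to 2 when single libraries were left out. In the other direction 1 was called with either limma setting, 1 with the 10 CPM filter and 2 to 3 when libraries were left out. The limma settings and the 10 CPM filter drop scarce genes, DESeq2 lost Hes1 (0.92, adjusted p = 0.0886), and of the fits without a library 3 lost Hes1 and 3 gained Hey1. In those fits Hey1 passed the filter only through the IL-1β libraries, where it was higher, so its fall was built in. Past both cutoffs, 1 Notch gene was lower without the filter (Hey1), and 0 to 1 were higher and 0 to 1 lower when libraries were left out. The higher one was Hes1, without IL-1β replicate 3 (1.12) or NP-G2-044 replicate 2 (1.23). Without IL-1β replicate 3 it passed the filter only through the libraries with NP-G2-044, where it was higher, so its rise there was built in. In the wider pathway 3 were higher past both cutoffs with limma on log2(TPM + 1) and 4 lower with the 10 CPM filter. Over the fits without a library, the log2 fold change of Notch1 ran from −0.052 to 0.41, reversing without IL-1β replicate 3 (−0.019) or NP-G2-044 replicate 2 (−0.052), and that of Hes1 from 0.56 to 1.23. The change in the receptor share of Notch4, −0.0505 percentage points, ran from −0.26 to 0.17 and reversed in 3 of these fits. The replicate numbers did not pair the samples (correlations of same-numbered libraries −0.0934, −0.0236 and 0.0259). With the replicate block 4779 genes were higher and 4719 lower, with 2 and 2 of the Notch genes and 14 and 26 of the wider pathway. Depth limits the scarce genes: apart from Notch2 and Rbpj, none of the 10 Notch genes had more than 44 reads in any library.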
